A study of Mus musculus with 12 samples.

Results

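Integrins are the receptors by which cells hold on to the extracellular matrix and to each other, and 10 of their subunit genes were followed across 12 4T1 tumours. The genes were Itgav, Itga4, Itga5, Itga6, Itgal and Itgax, which encode α subunits, and Itgb2, Itgb3, Itgb5 and Itgb7, which encode β subunits. They were chosen by name out of 35944 genes with a matched transcript, with earlier results of these data known. All 10 had enough reads to be tested. The level of a gene in a tumour was the sum of the TPM (an abundance per unit of transcript length, scaled to the same total in each library) over its annotated transcripts, and differences between groups were tested on its estimated reads.

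4T1 is a mouse mammary carcinoma line that grows in the immunocompetent BALB/c strain. In each female BALB/c mouse, aged between 6 and 8 weeks, 100000 4T1 cells were placed under the skin of the right flank. From day 5, peritumoural injections of extracellular vesicles (EVs, membrane vesicles that cells release) were given at 3 µg per injection every 2 days, and tumour RNA was harvested on day 21. All EVs came from MS-1, a mouse endothelial cell line, and were electroporated with a miRNA mimic. Mimics of miR-222-3p, of miR-183-5p and of miR-142-5p made up 3 groups, and the nematode miRNA miR-67, named ctrl, the control group, so that each of the 4 groups held 3 tumours. All tumours therefore received electroporated EVs, and there was no tumour without EVs among those compared. The study used these EVs to ask what the miRNAs do to the tumour and its macrophages.

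An integrin is a pair of 1 α and 1 β subunit, and the pair decides what the cell can bind. The αv subunit, encoded by Itgav, pairs with the β3 and β5 subunits among others and binds vitronectin and other proteins that carry the RGD motif. The α5 subunit pairs with β1 to form the main fibronectin receptor, the α4 subunit pairs with β1 or β7 and binds VCAM-1, fibronectin or MAdCAM-1, and the α6 subunit pairs with β1 or β4 and binds laminin. The β2 subunit is found on leukocytes, where it pairs with αL (Itgal, the LFA-1 receptor for ICAMs), αM (Itgam) or αX (Itgax, also known as CD11c). In tumours, integrins of carcinoma cells, fibroblasts, vessels and infiltrating leukocytes are measured together.

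Because a miRNA recognises its targets mainly through its seed, bases 2 to 8, the mature mouse miRNAs are given here with the seed in capitals (RefSeq, GRCm38.p6, 5′ to 3′).
miR-142-5p: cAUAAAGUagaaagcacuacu
miR-183-5p: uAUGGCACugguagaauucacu
miR-222-3p: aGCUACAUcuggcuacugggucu

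The 3 seeds differ, and matches to them were sought in the 3′ UTRs of the integrin subunits. The search covered the transcript strand for ACTTTAT and CTTTATA (miR-142-5p), GTGCCAT and TGCCATA (miR-183-5p), and ATGTAGC and TGTAGCA (miR-222-3p), where an overlap of both forms of 1 miRNA, the 8mer, was counted once. In the most read protein-coding transcript of each subunit, matches to miR-142-5p were found only in Itga4 (5 matches in a 3′ UTR of 6508 bases) and matches to miR-222-3p only in Itgb3 (2 matches in 3331 bases). No subunit held a match to miR-183-5p. A miR-142-5p match was thus held by 1 of 10 subunits (10%), while 22.2% of the 14599 genes with a 3′ UTR had one. The corresponding shares were 0% and 15.3% for miR-183-5p and 10% and 16.7% for miR-222-3p. Each subunit counts for 10% here, so these shares do not set the subunits apart from other genes. The searched 3′ UTRs ran from 165 bases (Itgb7) to 6508 bases (Itga4), beside a median of 1025 bases over all genes. Among all 23 protein-coding transcripts of the subunits with an annotated stop codon, Itga4-201 and Itgb3-201 were again the only ones with a match. The Itga4 matches lay at chr2:79331107-79331129, chr2:79331321-79331343, chr2:79331473-79331495, chr2:79331747-79331769 and chr2:79332983-79333006, and the Itgb3 matches at chr11:104669180-104669202 and chr11:104669696-104669719 (GRCm38, plus strand). The fullest match of each gene, an 8mer, is shown with the match in capitals, since these are the sites at which a direct effect of the mimics on a subunit would first be looked for.
Itga4, miR-142-5p 8mer: tgagtttctacaACTTTATAccca
Itgb3, miR-222-3p 8mer: tgggtgcatctgATGTAGCActta

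Neither gene was lower in the tumours that received the matching miRNA beyond the spread between tumours. Itga4 in miR-142-5p tumours had a log2 fold change against ctrl of 0.02 (SE 0.27), and Itgb3 in miR-222-3p tumours one of -0.03 (SE 0.19). The 95% intervals, -0.52 to 0.56 and -0.40 to 0.33, leave room for modest changes in either direction.

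The libraries held between 20285968 and 27021401 estimated reads. Some of them stood apart in ways the labels do not name. The summed TPM of 5 B cell markers was 445 in miR-142-5p tumour 3 and at most 2.84 in any other tumour, and its 5 general leukocyte markers (Ptprc, Lcp1, Coro1a, Laptm5 and Cd53) summed to 1191 TPM against at most 759 elsewhere. Muscle markers summed to 336 TPM in miR-183-5p tumour 3 and to at most 25.7 elsewhere. Reads shared between the mitochondrial gene mt-Co2 and its copy Gm28661 split the libraries into a set of 8 and a set of 4. The latter holds miR-183-5p tumour 3 beside all 3 tumours of the miR-222-3p group, so that this library set cannot be told apart from miR-222-3p treatment. Carcinoma markers were present in every tumour, with Krt8 between 481 and 732 TPM and Epcam between 69.7 and 125 TPM. In such bulk samples, fewer cells of a type and less RNA per cell cannot be told apart.

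By TPM summed over all transcripts, Itgb5 and Itga6 were the most abundant of the 10 and Itga4 the least. Mean TPM over the 12 tumours was 212 ± 30.2 (SD) for Itgb5, 135 ± 11.6 for Itga6 and 109 ± 13.3 for Itgb2. It was 54.0 ± 11.4 for Itga5, 53.1 ± 7.38 for Itgav and 45.1 ± 12.6 for Itgb7. Itgax (31.7 ± 7.86), Itgal (25.1 ± 6.43), Itgb3 (17.9 ± 3.29) and Itga4 (6.51 ± 2.03) followed. Only 2 neighbours in this order had ranges that did not overlap. These were Itgb2 above Itga5, and Itgb3 above Itga4, each in 12 of 12 tumours. Itgb5 exceeded Itga6, and Itga6 exceeded Itgb2, in 11 of 12 tumours, whereas Itga5 exceeded Itgav in 5 of 12 only and the order of these 2 is not defined. Itgb1, the shared partner of many α subunits, was higher than all of them at 336 ± 32.9 TPM, and Itgam reached 45.6 ± 9.15 TPM.

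**Figure D1:**
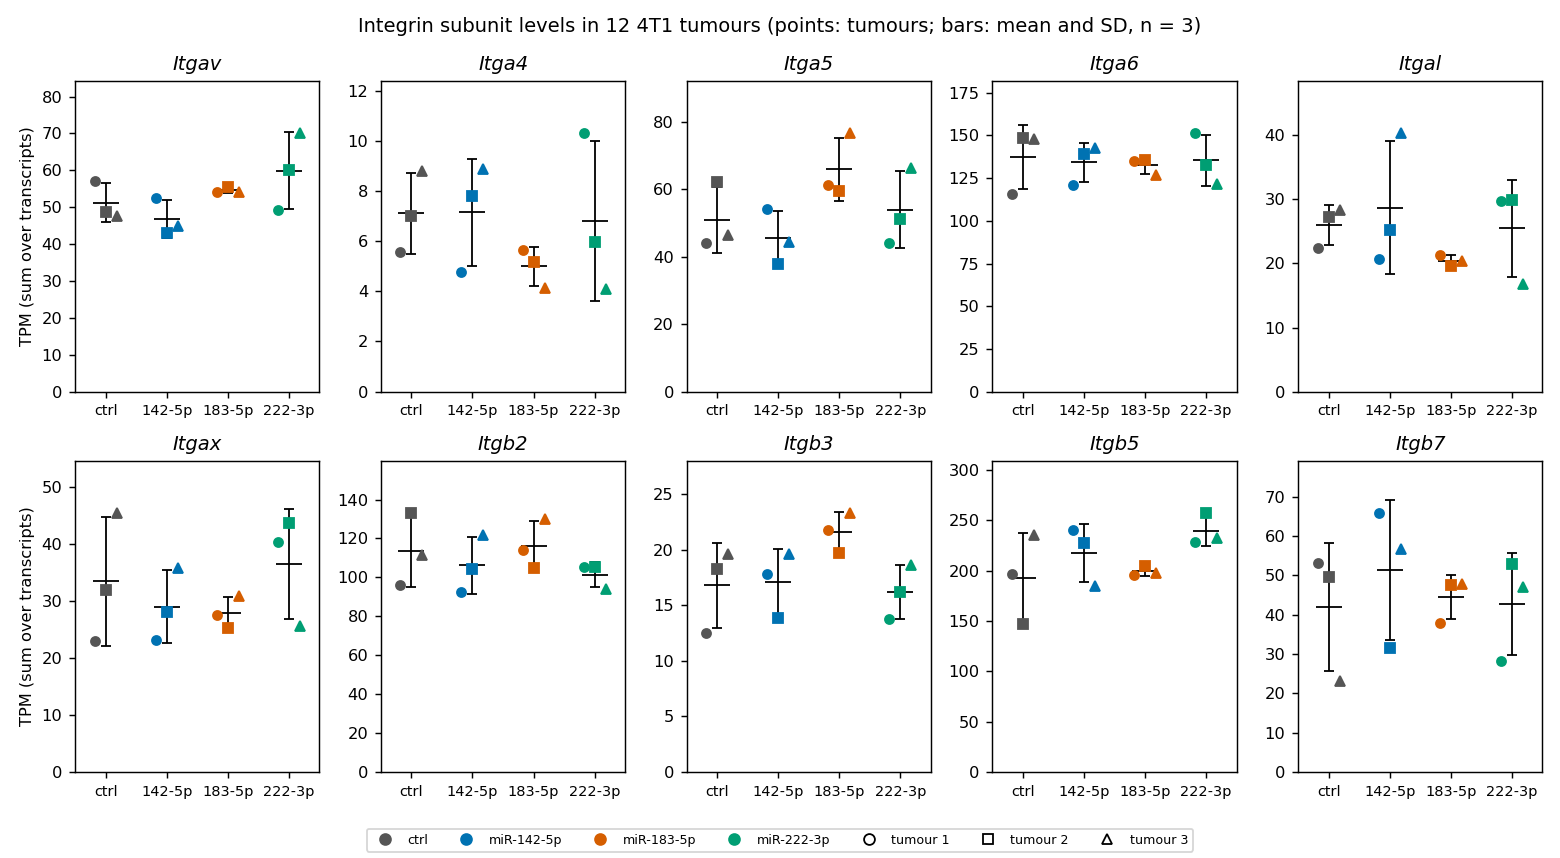
TPM of each integrin subunit (y axis, linear from 0, a separate scale for each gene) in the 4 groups (x axis), with 1 point per tumour and the mean and SD of 3 tumours as bars. The groups overlap for most subunits on this scale, Itga5 and Itga4 included, and the 3 miR-183-5p tumours lie above the 3 ctrl tumours for Itgb3 and below them for Itgal. For Itgb3 this is close to a tie, with miR-183-5p tumour 2 at 19.65 and ctrl tumour 3 at 19.61 TPM.

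Part of this order depended on which transcripts were counted. Itga6 was the second most abundant subunit by its summed TPM, but its 3 protein-coding transcripts held only 21.7% ± 6.88 (SD, n = 12) of that TPM and 35.5% of its reads. The largest share, 59.4% ± 5.21, belonged to Itga6-203, an annotated processed transcript of 2721 bases, and Itga6-205, a processed transcript of 443 bases, held 18.2% ± 4.95. Counting protein-coding transcripts alone, Itga6 stood at 29.8 TPM, below Itgb5, Itgb2, Itgav and Itga5. Itgb7 behaved alike on the TPM scale, since its retained-intron transcript of 449 bases, Itgb7-204, held 45.2% ± 10.1 of the TPM but 9.63% of the reads, and its protein-coding level was 24.0 TPM. The remaining 8 subunits kept 83.3% (Itgax) to 99.98% (Itgb3) of their TPM in protein-coding transcripts. On that scale Itgb5, at 208 TPM, exceeded Itgb2, at 107 TPM, in 12 of 12 tumours.

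A short transcript also weighed on Itgav. Itgav-205, a protein-coding fragment of 463 bases, held between 0% (ctrl tumour 3) and 56.9% (miR-222-3p tumour 3) of the gene's TPM, although it received at most 5.52% of its reads. The mean transcript length used to scale Itgav accordingly lay anywhere between 2742 bases in miR-222-3p tumour 3 and 6086 bases in ctrl tumour 3. For Itgb3, which has a single main transcript, this length was between 5567 and 5582 bases.

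**Figure D2:**
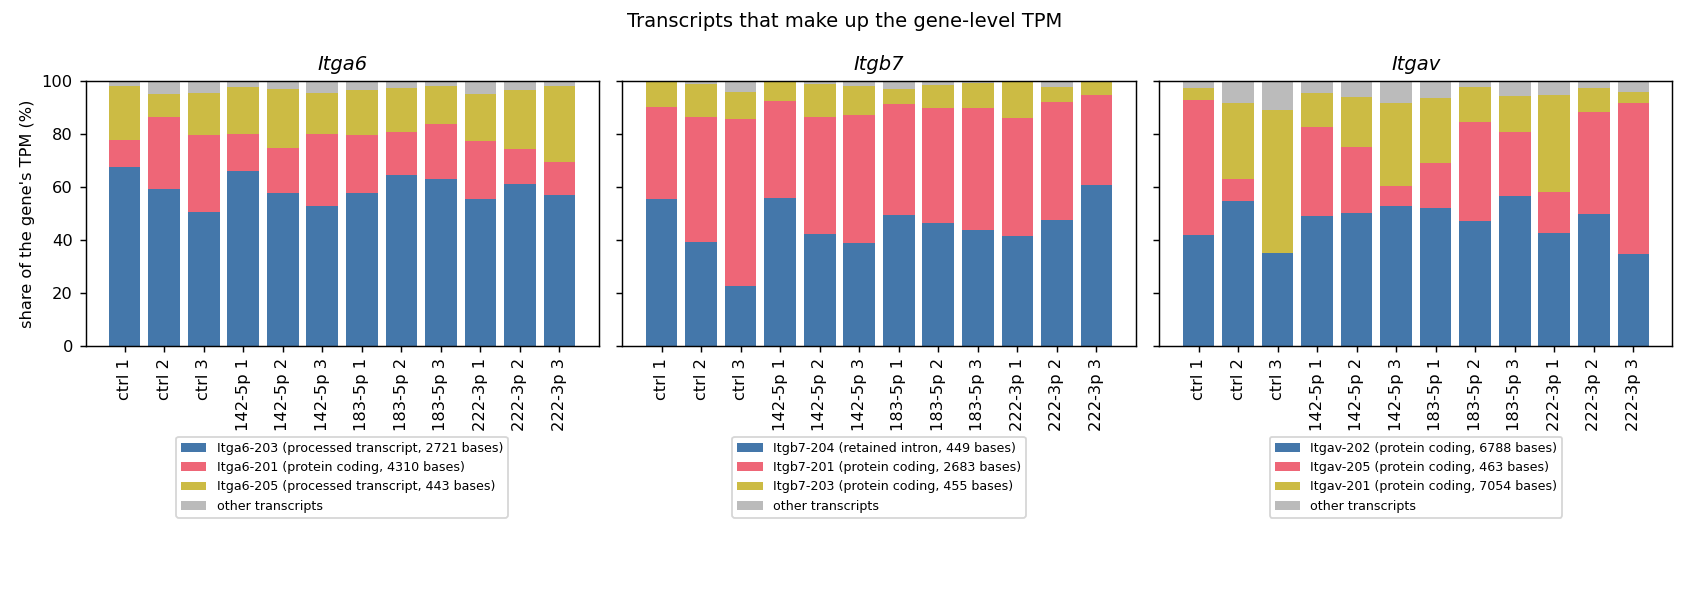
Share of each gene's TPM (y axis, percent) held by its 3 most abundant transcripts and by all others in each of the 12 tumours (x axis). A processed transcript leads in Itga6, a retained intron and the full-length transcript share Itgb7, and the 463-base transcript of Itgav varies from 0% to 56.9%.

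To examine whether the miRNAs altered integrin expression, each group was compared with the ctrl-EV tumours and the groups with each other. No subunit passed an adjusted p-value of 0.05 in the DESeq2 test in any of the 6 pairs of groups, nor in a single test for any difference among the 4 groups. The lowest unadjusted p-value in that last test was 0.068, for Itgb3. Calls were rare among all genes as well, with 0.0596% of 15112 genes called in the test across groups. The edgeR and limma tests also called 0 subunits.

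The 10 subunits lay close to ctrl where miR-142-5p-EVs were given. Their log2 fold changes ran from -0.19 (Itgax, SE 0.22) to 0.29 (Itgb7, SE 0.36), with 5 above and 5 below 0 and a median of -0.0003, against -0.005 over all genes tested. None had an unadjusted p-value under 0.05, whereas 3.56% of all genes had. All overlapped with ctrl in normalised read count, while 6.07% of genes did not, and 0.00649% of genes passed the adjusted threshold.

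Where miR-183-5p-EVs were given, Itgb3 and Itga5 lay above ctrl and Itga4 and Itgal below, in each case with no overlap in normalised read count between the 3 treated and the 3 ctrl tumours. In TPM, Itgb3 and Itgal stayed apart from ctrl, whereas Itga5 and Itga4 overlapped with it by 1 ctrl tumour each. For Itgb3 the margin in TPM was very narrow, with miR-183-5p tumour 2 at 19.65 and ctrl tumour 3 at 19.61. The 4 of 10 subunits without overlap in normalised read count compare with 9.17% of all genes. Only Itgb3 had an unadjusted p-value under 0.05, which 3.22% of all genes had, and 0% of genes passed the adjusted threshold. The 6 other subunits lay between -0.22 (Itgax, SE 0.22) and 0.10 (Itgav, SE 0.19). The median over the 10 subunits was 0.06, against -0.01 over all genes. These 4 subunits are described one by one further on.

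Where miR-222-3p-EVs were given, log2 fold changes ran from -0.17 (Itgb2, SE 0.12) to 0.31 (Itgb5, SE 0.18), with 5 subunits above and 5 below 0 and a median of -0.007, against -0.008 over all genes. None had an unadjusted p-value under 0.05, as 2.29% of genes had. All overlapped with ctrl on that count scale, while 5.50% of genes did not, and 0.0260% of genes passed the adjusted threshold. The 3 contrasts share the ctrl tumours, so their values are not independent of each other.

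**Figure D3:**
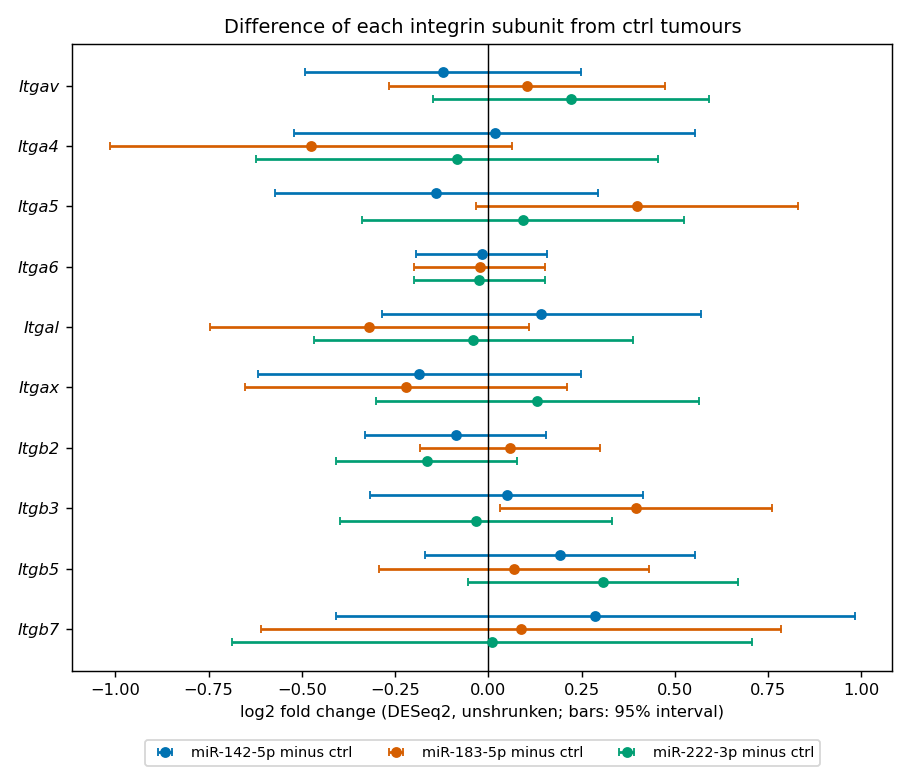
Log2 fold change of each integrin subunit against ctrl (x axis, DESeq2, unshrunken) with its 95% interval, for the 3 miRNA groups. All intervals cover 0 except that of Itgb3 in miR-183-5p tumours, from 0.03 to 0.76, whose adjusted p-value was 0.9998.

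Among the subunits of the αv receptors, Itgb3 differed most from ctrl. Itgb3 encodes the β3 subunit, known from the vitronectin receptor of angiogenic endothelium, osteoclasts and macrophages and, with αIIb, from the platelet fibrinogen receptor. Its normalised read count was 1255, 1654 and 1711 in the ctrl tumours and 2005, 1886 and 2193 in the miR-183-5p tumours. It was 1775, 1303 and 1704 in the miR-142-5p tumours. The miR-222-3p tumours held 1196, 1500 and 1819. All 3 miR-183-5p tumours were higher than every other tumour in the series, while the other groups covered the same range. The log2 fold change against ctrl was 0.40 (SE 0.19, unadjusted p = 0.033, DESeq2 adjusted p = 0.9998), which corresponds to 1.32-fold with a 95% interval from 1.02 to 1.70. It was 0.34 without miR-183-5p tumour 3 and 0.27 without ctrl tumour 1, the lowest ctrl tumour. Platelet markers were low apart from Pf4 (50.3 to 140 TPM), with Gp9 at 0.174 to 1.25 TPM. Itga2b, the platelet partner of Itgb3, lay at 1.96 to 6.50 TPM. It was 4.46, 3.20 and 3.90 TPM in ctrl and 4.59, 5.47 and 5.34 TPM in miR-183-5p tumours. In normalised read count these groups overlapped. Of 5 platelet markers tested in that contrast, 2 had a positive and 3 a negative log2 fold change. Itgb3 had r = 0.54 with the summed TPM of the platelet markers, which Pf4 led, and 0.44 within groups. The part of platelets in the Itgb3 values was not tested.

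Itgb5 encodes the β5 subunit, which pairs with αv only. It was by far the more abundant β partner of αv, and within a tumour its TPM was between 8.04 and 16.6 times that of Itgb3. Mean TPM was 193 ± 44.4 (SD, n = 3) in ctrl and 217 ± 29.0 in miR-142-5p tumours, and with miR-183-5p it was 199 ± 4.97 and with miR-222-3p 239 ± 15.4. The 3 miR-222-3p tumours lay at 229, 257 and 233 TPM, but ctrl tumour 3 at 235 lay among them. The log2 fold change was 0.31 (SE 0.18, 95% interval -0.05 to 0.67, adjusted p = 0.99996).

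Itgav itself showed mean TPM of 51.2 ± 5.22 in ctrl and 46.8 ± 5.12 in miR-142-5p tumours, while miR-183-5p tumours held 54.6 ± 0.681 and miR-222-3p tumours 59.9 ± 10.4, and every group overlapped with ctrl. With miR-222-3p the log2 fold change was 0.22 (SE 0.19) when transcript length was taken into account and -0.10 when it was not. That direction therefore rested on the length assigned to Itgav, which was shortest in miR-222-3p tumour 3. Beside it, the ratio of Itgb3 to Itgav TPM was 0.271 ± 0.00683 in miR-222-3p tumours and ranged from 0.218 to 0.411 in ctrl tumours.

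Itga5, the α subunit of the fibronectin receptor, was higher in normalised read count in each miR-183-5p tumour than in each ctrl tumour. This count was 3040, 3849 and 2776 in ctrl and 3880, 3917 and 4951 in miR-183-5p tumours. It was 3697, 2437 and 2644 in miR-142-5p tumours. The miR-222-3p tumours held 2623, 3255 and 4435. The gap to ctrl was narrow, since ctrl tumour 2 nearly reached the lowest miR-183-5p tumour, and miR-222-3p tumour 3 lay within the miR-183-5p range. In TPM the groups overlapped, with ctrl tumour 2 at 62.0 and miR-183-5p tumours 1 and 2 at 61.3 and 59.5. The log2 fold change was 0.40 (SE 0.22, unadjusted p = 0.070, DESeq2 adjusted p = 0.9998), or 1.32-fold with a 95% interval from 0.98 to 1.78. It was 0.27 without miR-183-5p tumour 3, the highest. Itgb1, its partner, was between 4.89 and 7.71 times as abundant as Itga5 within a tumour and had a log2 fold change of 0.16 (SE 0.14, adjusted p = 0.9998) in the same contrast.

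Itga4, whose product lets leukocytes bind VCAM-1 on endothelium, lay below ctrl in normalised read count in each miR-183-5p tumour. This count was 943, 1069 and 1294 in ctrl and 883, 839 and 655 in miR-183-5p tumours. The miR-142-5p tumours held 801, 1242 and 1302, and the miR-222-3p tumours spread from 674 to 1513, wider than any other group. In TPM the groups overlapped, with ctrl tumour 1 at 5.55 and miR-183-5p tumour 1 at 5.67. The log2 fold change in miR-183-5p tumours was -0.48 (SE 0.27, unadjusted p = 0.083, DESeq2 adjusted p = 0.9998), or 0.72-fold with a 95% interval from 0.49 to 1.04.

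Itga6, the α subunit of the laminin receptors, was nearly the same in every tumour when all its transcripts were summed, but not in its protein-coding transcripts. Its normalised read count over all transcripts ran from 5034 (ctrl tumour 1) to 5794 (ctrl tumour 2), and both extremes belonged to the ctrl group. The TPM of its protein-coding transcripts ran from 13.7 (ctrl tumour 1) to 46.5 (ctrl tumour 3), a 3.38-fold range that was the widest of the 10 subunits on that scale. The same libraries stood out in other genes. Ctrl tumour 1 and miR-222-3p tumour 3 (17.3 TPM) were also assigned the shortest lengths of Itgav and Itgb7, and ctrl tumour 3 the longest. Whether this range reflects expression or the split of reads between transcripts was not tested. Log2 fold changes over all transcripts were -0.02 in each of the 3 contrasts (SE 0.09), with 95% intervals within -0.20 to 0.16. Against its partner Itgb4, Itga6 was 1.83 ± 0.166 times as abundant over the 12 tumours by TPM summed over all transcripts of each gene.

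Among the leukocyte integrins, Itgal, the αL subunit of LFA-1, was lower in each miR-183-5p tumour than in each ctrl tumour. Its normalised read count was 1708, 1867 and 1873 in ctrl and 1492, 1423 and 1453 in miR-183-5p tumours. It was 1556, 1793 and 2661 in miR-142-5p tumours and 1956, 2101 and 1241 in miR-222-3p tumours. Both ctrl and miR-183-5p tumours were tightly grouped, while the other groups spread to either side of them. The log2 fold change in miR-183-5p tumours was -0.32 (SE 0.22, unadjusted p = 0.14, DESeq2 adjusted p = 0.9998), or 0.80-fold with a 95% interval from 0.60 to 1.08. The model shares 1 estimate of the spread per gene across the 4 groups, and the wide miR-142-5p and miR-222-3p groups enter that estimate. The highest value belonged to miR-142-5p tumour 3, the tumour with B cell markers, and without it the log2 fold change of the miR-142-5p group turned from 0.14 to -0.12.

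Itgb2, the β subunit that all leukocyte integrins of this family share, did not follow Itgal. Its mean TPM was 114 ± 18.5 in ctrl and 106 ± 14.8 in miR-142-5p tumours, then 116 ± 12.8 with miR-183-5p and 101 ± 6.61 with miR-222-3p, with log2 fold changes of -0.09 (SE 0.12), 0.06 (SE 0.12) and -0.17 (SE 0.12). Itgax, the αX subunit of dendritic cells and macrophages, ranged from 23.0 TPM (ctrl tumour 1) to 45.4 TPM (ctrl tumour 3), so that the ctrl group spanned the whole series, and its log2 fold changes were -0.19, -0.22 and 0.13 (SE 0.22 each). Itgam, which is highly expressed in neutrophils and macrophages, had log2 fold changes of -0.04, -0.10 and -0.06 (SE 0.19 each). Taken per unit of Itgb2, Itgal was 0.177 ± 0.0175 in miR-183-5p and 0.230 ± 0.0248 in ctrl tumours. The summed TPM of Itgal, Itgam, Itgax and Itgad was 0.947 ± 0.178 times that of Itgb2 over the 12 tumours.

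Itgb7 encodes the β7 subunit, which with α4 directs lymphocytes to the gut and with αE (Itgae) holds them at epithelium. In normalised read count over all transcripts it was the most variable of the 10, from 444 (ctrl tumour 3) to 1438 (miR-142-5p tumour 1). The length assigned to it was longest in ctrl tumour 3, at 1666 bases, and was 1066 bases in miR-142-5p tumour 1. In protein-coding TPM Itgb7 ranged 2.11-fold, from 16.5 (miR-222-3p tumour 1) to 34.8 (miR-142-5p tumour 3). On that scale Itga6, Itga4 and Itgal ranged more widely (3.38-, 2.48- and 2.35-fold). Group means were 867 ± 378 in ctrl and 1057 ± 396 in miR-142-5p tumours, then 920 ± 131 with miR-183-5p and 872 ± 293 with miR-222-3p, and the intervals of the fold changes accordingly ran from -0.69 to 0.98. Its TPM exceeded that of Itga4 between 2.64- and 13.8-fold, or between 1.24- and 5.42-fold for the full-length transcripts Itgb7-201 and Itga4-201. Itgae was low, at 0.558 to 2.94 TPM.

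Between miRNA groups, 3 differences had an unadjusted p-value under 0.05. Itga5 was higher in miR-183-5p than in miR-142-5p tumours, with a log2 fold change of 0.54 (SE 0.22, unadjusted p = 0.015, DESeq2 adjusted p = 0.43). Itgal was lower in the same comparison, at -0.46 (SE 0.22, unadjusted p = 0.035, adjusted p = 0.57), and at -0.20 without miR-142-5p tumour 3. These 2 of 10 subunits compare with 7.95% of all genes. Itgb3 was higher in miR-183-5p than in miR-222-3p tumours, at 0.43 (SE 0.19, unadjusted p = 0.021, adjusted p = 0.9996), 1 of 10 subunits against 3.24% of genes. Between miR-142-5p and miR-222-3p tumours no subunit had an unadjusted p-value under 0.05, against 3.59% of genes. Adjusted calls covered 0.0519%, 0.0324% and 0.0389% of genes in these 3 comparisons. Itga5 was the only subunit that passed the adjusted threshold under any alternative. This happened when miR-183-5p tumours were set against the miR-142-5p group without its tumour 1, at 0.74 (adjusted p = 0.038), when 415 genes were called in all.

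Genes around the integrins gave no calls against ctrl either. None of the 15 other integrin subunits tested, 29 ligands and 45 adaptor and signalling genes passed the adjusted threshold in any of the 3 contrasts. In miR-142-5p tumours their median log2 fold changes were 0.16, -0.05 and -0.001, in miR-183-5p tumours -0.008, 0.03 and -0.009, and in miR-222-3p tumours -0.06, 0.04 and 0.02. Of the other subunits with a mean count of at least 100, Itga2, a collagen receptor subunit, was lowest in miR-142-5p (-0.58, SE 0.30) and miR-222-3p tumours (-0.46, SE 0.30), and Itga10 was highest in the former (0.26, SE 0.53) and lowest in miR-183-5p tumours (-0.64, SE 0.53). Itga7 was highest in miR-183-5p (0.19, SE 0.29) and Itgb1 in miR-222-3p tumours (0.04, SE 0.14). The highest Itga7 value, 4.63 TPM, belonged to miR-183-5p tumour 3, the tumour with muscle markers. Below that limit, Itga11, a collagen receptor subunit with a mean count of 16.2, stood at 1.56 (SE 0.58, unadjusted p = 0.0068, DESeq2 adjusted p = 0.9998) in miR-183-5p tumours and was named after its value was seen.

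Ligands and adaptors spread more widely, and the highest and lowest given here are again among genes with a mean count of at least 100. Below that limit, Lama1, a laminin chain with a mean count of 33.8, stood at 1.36 (SE 0.49) in miR-183-5p tumours, and Rasgrp2, an activator of Rap1 with a mean count of 86.1, at 1.38 (SE 0.50) in miR-142-5p tumours. Both were likewise named after their values were seen, and both were higher than ctrl without overlap in normalised read count (unadjusted p = 0.0053 and 0.0058, DESeq2 adjusted p = 0.9998 and 0.89). Over all genes, 9.17% and 6.07% had no overlap in these contrasts. The Rasgrp2 count varied widely in miR-142-5p tumours, at 161 ± 123 (SD) against 63.1 ± 20.9 in ctrl. Within the limit, Tnc (tenascin C, which binds αv integrins) was highest among the ligands in miR-183-5p tumours at 0.75 (SE 0.63) and Vwf was lowest at -0.68 (SE 0.47). Icam2, a ligand of LFA-1, was highest in miR-142-5p tumours at 0.41 (SE 0.28), and Lama4, a laminin chain of vessels, in miR-222-3p tumours at 0.50 (SE 0.24, unadjusted p = 0.038, adjusted p = 0.99996). Lama3, a chain of epithelial laminin, was lowest in both, at -1.66 and -1.27 (SE 0.73 each). It received no p-value because a single tumour was far from the rest. Among the adaptors, Rasgrp1, an activator of Ras in lymphocytes, was lowest in miR-183-5p (-0.73, SE 0.33) and miR-222-3p tumours (-0.33, SE 0.33), and Tgfb1i1, a focal adhesion protein of mesenchymal cells, was highest in both (0.67 and 0.59, SE 0.35 each). In miR-142-5p tumours Skap1, a T cell adaptor, was highest (0.88, SE 0.45), with a count of 153 ± 119 (SD) against 83.1 ± 15.1 in ctrl. This group holds the tumour with B cell markers, tumour 3, where T cell markers summed to 239 TPM against at most 91.0 TPM elsewhere. The part of that tumour in the Skap1, Rasgrp2 and Icam2 values was not tested.

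The spread of the subunits over all tumours was about as large as the spread within groups. The SD of the log2 normalised count over all 12 tumours had a median of 0.28 over the 10 subunits, and the SD within groups a median of 0.27. The corresponding medians over 11542 genes with a mean count of at least 100 were 0.19 and 0.19. Itga6, summed over all transcripts, was among the steadiest genes, with an SD of 0.07 that was lower than in all but 0.69% of those genes, and Itgb2 (0.14) was also below the median. Itgb7 (0.49, percentile 94.8), whose count depends on its assigned length, and Itga4 (0.39, percentile 90.2) were the most variable of the 10 on this scale.

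Several subunits varied in step with each other or in opposite directions. Over the 12 tumours Itga4 was low where Itga5 was high (Pearson r = -0.90, Spearman rho = -0.88), and this correlation was -0.89 within groups and -0.82 in the 8 libraries of the larger set. Itgav likewise opposed Itga4 (r = -0.81), although every r of Itgav also carries the length assigned to it. Itgb2 opposed Itgb5 (r = -0.76, and -0.97 in the 8 libraries). Itga5 went with Itgb3 (r = 0.77) and with its partner Itgb1 (r = 0.80), and Itga4 with Itgal (r = 0.77). Itgal and Itgb2, which form 1 receptor, had r = 0.08 over the 12 tumours, 0.40 within groups and 0.31 in the 8 libraries. Itgax and Itgb2 had r = 0.03 over the 12 tumours and 0.33 within groups, and Itgav and Itgb5 had r = 0.47 over the 12 tumours. These values describe 45 pairs of subunits and pairs with Itgb1 or Itgam over the same 12 tumours, in which both genes of a pair were read from the same library, and carry no test.

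**Figure D4:**
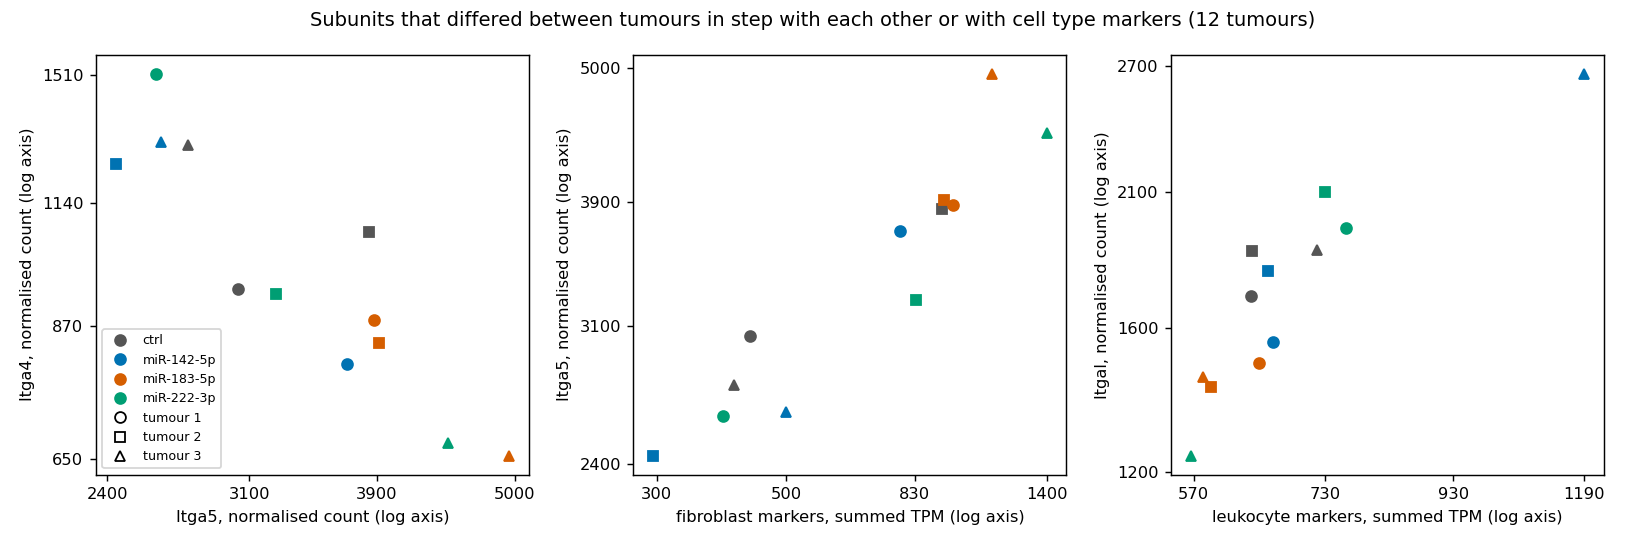
Each point is 1 of 12 tumours (colour: group, shape: tumour number, all axes logarithmic). Itga4 decreases as Itga5 increases (left, r = -0.90), Itga5 increases with the summed TPM of 7 fibroblast markers (middle, r = 0.94), and Itgal with that of 5 leukocyte markers (right, r = 0.89).

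The same tumours differed in markers of stroma and leukocytes. Itga5 followed the summed TPM of 7 fibroblast markers (Col1a1, Col1a2, Col3a1, Dcn, Pdgfra, Pdgfrb and Lum), with r = 0.94 over 12 tumours. This r was 0.93 within groups and 0.96 in the 8 libraries. Col1a1, Col1a2 and Col3a1 made up most of that sum, with mean TPM of 208, 228 and 252 of 749. Pdgfra was highest in ctrl tumour 3 (25.7 TPM), where the Itga5 count was 2776. It was 11.6 TPM in miR-183-5p tumour 3, where Itga5 was highest. Itga5 opposed the summed TPM of 8 macrophage markers (r = -0.88), which C1qa, C1qb and C1qc led (728, 505 and 408 of 1931). Itgb3 showed the same signs (r = 0.76 and -0.83), and Itga4 the opposite ones (r = -0.83 and 0.73). Itgal followed the leukocyte markers (r = 0.89, and 0.86 without miR-142-5p tumour 3), whereas Itgb2 had r = -0.03 with them, and -0.37 without that tumour. For Itgb7 these values were -0.06 and -0.50. The highest r of Itgb7 in size was -0.71, with endothelial markers. It was -0.85 within groups, -0.79 without miR-142-5p tumour 3 and -0.65 in the 8 libraries, but -0.26 without the 2 tumours farthest from the median. Itgb3 had r = 0.58 and Itgal r = -0.72 with the summed TPM of 7 neutrophil markers, which S100a8 and S100a9 led (519 and 1025 of 1660). Itga6 reached at most 0.55 in size with any list.

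Marker levels also differed between groups, both where the subunits stood apart from ctrl and where they did not. The fibroblast markers summed to 932 to 1127 TPM in the miR-183-5p tumours and to 433, 924 and 407 TPM in ctrl tumours 1 to 3. In that contrast 6 of the 7 genes had a positive log2 fold change, and 3 genes had no overlap in normalised read count. Over all genes, 9.17% had no overlap in this contrast. None of the 7 was at 0 in any tumour. In miR-222-3p tumours the fibroblast markers summed to 389.6, 834 and 1398 TPM, a range that encloses the ctrl sums. There 7 of 7 genes were positive, with a median log2 fold change of 0.52, and this median was 0.50 in miR-183-5p tumours. The macrophage markers summed to 1147 to 1733 TPM in miR-183-5p and to 1740 to 2200 TPM in ctrl tumours, with 7 of 8 genes lower, 2 without overlap. The leukocyte markers summed to 580 to 645 against 635 to 719 TPM, with 5 of 5 lower, 1 without overlap. The 7 neutrophil markers lay on the other side, at 1884 to 3048 TPM in miR-183-5p and 1053 to 2017 TPM in ctrl tumours. Of these, 7 of 7 were positive (median 0.37) and 2 had no overlap in normalised read count, against the same 9.17% of genes. No gene of these lists passed the adjusted threshold. Their part in the values of Itga5, Itgb3, Itga4 and Itgal was not tested.

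**Figure D5:**
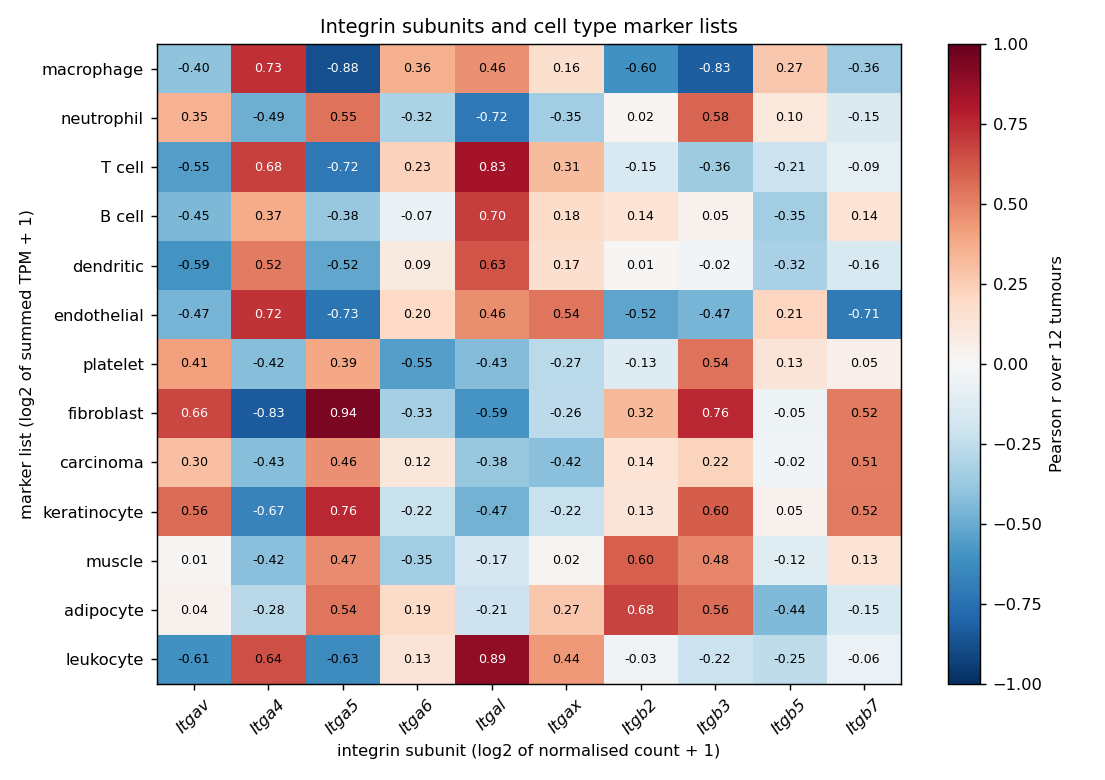
Pearson r over 12 tumours (colour and printed value) between each integrin subunit (columns, log2 normalised count + 1) and the summed TPM of each marker list (rows, log2 + 1). Itga5 and Itgb3 share their signs with the fibroblast list and oppose the macrophage list, Itga4 shows the reverse, and Itga6 has no value above 0.55 in size.

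The genes whose pattern was most like that of a subunit were sought among the same 11542 genes, by Pearson r of log2(normalised count + 1) over the 12 tumours, and the 3 closest of each are given as a description. For Itga5 they were Cd248, Loxl2 and Acta2 (r = 0.98 each), genes known from pericytes, matrix cross-linking and myofibroblasts. For Itgal they were March1, Pik3ap1 and Plcb2 (r = 0.94 to 0.95), which are expressed in leukocytes. Itgav was closest to Dph3, Tmed3 and Eif6 (0.95 to 0.96), Itga4 to Zfp966, F830016B08Rik and Ogt (0.95 to 0.96), and Itgb5 to Slc30a7, Cxcl16 and Sptan1 (0.90 to 0.94). Itgb7 was closest to Ncapd2, Cfl1 and Naa10 (0.92 each), Itgb2 to Mov10, Nptxr and Ercc6l (0.90 to 0.93), and Itgb3 to Ankrd33b, Arf6 and Car13 (0.89 to 0.91). The patterns of Itgav and Itgb7 also carry the length assigned to each gene. Itga6 was closest to Casp9, Zfp111 and Akap11 (0.88 to 0.91), and Itgax to Urb1, AC166110.3 and Senp5 (0.88 to 0.89). Within groups the r of these 30 genes stayed between 0.84 and 0.98. Without the 2 tumours farthest from the median the lowest r was 0.70, between Ercc6l and Itgb2.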

How the data were processed

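Polyadenylated RNA of 12 tumours was sequenced as 1 stranded mRNA library each, and the labels gave the 4 groups of 3. The authors quantified the reads with Salmon. The deposited tables hold, per transcript, an estimated count of reads and a TPM value per library. Transcripts were matched to GENCODE M21 on GRCm38 (116710 of 118783), because the sources name differing annotation releases, and unmatched ones held 0.633% to 0.671% of a library. Counts per gene are sums over transcripts that were rounded and tested with DESeq2 1.42.0 (Wald test, and a likelihood ratio test across groups) with the length offset of tximport and all 12 libraries in 1 fit. Genes needed 10 reads in at least 3 libraries (15459 genes), p-values were adjusted over all genes by Benjamini-Hochberg, and the threshold was 0.05. Normalised counts are scaled for depth and length. Reads shared by related transcripts are split by Salmon's model, so transcript shares are estimates. Nothing states that tumours came from separate cages or litters, and p-values measure only the spread between these tumours. Within-group pairs of libraries differed by 14.0 to 60.6 times sampling noise (chi-square per degree of freedom), so none was a copy.

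The subunits and gene lists were chosen with earlier results of these data known. Named were all 10 subunits against ctrl, those with an unadjusted p under 0.05 between miRNA groups, Itgb1 and Itgam, called or else the highest and lowest genes of each list with a mean count of at least 100, and the 3 most similar genes. Alternatives were edgeR 4.0.16 and limma 3.58.1 (log2(TPM + 1) or + 0.1), TMM factors, no filter, 50 reads in every library, no length offset, a fit of just 2 groups, a block for the replicate number, the library set as a covariate, a threshold of 0.1, protein-coding transcripts only and each tumour left out. Scripts used R 4.3.3 and Python 3.11.15 and were tested on simulated data.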

Additional observations from a re-analysis of the deposited data

How the results depend on the processing

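No subunit was called in any of the 6 comparisons or across groups under any alternative, with or without the replicate block, except when miR-183-5p tumours were set against the miR-142-5p group, where the number called was 0 to 1 when single tumours were left out (1 without miR-142-5p tumour 1). With the replicate block 0 subunits were called in each comparison. The replicate numbers did not pair the tumours (mean r of deviations -0.0675 in 18 same-number and 0.0334 in 36 other pairs). Counting protein-coding transcripts only moved the mean TPM of Itga6 to 29.8 and of Itgb7 to 24.0. Of 330 named log2 fold changes recomputed without leaving out a tumour, 11 changed sign, all with adjusted p-values above 0.99. In miR-222-3p against ctrl, dropping the length offset gave -0.10 for Itgav and -0.10 for Itgb7, and the library set as a covariate gave 0.31 for Itga4, -0.25 for Itga5, 0.070 for Itga6, -0.10 for Itgax and -0.15 for Itgb7, where the effect of the set is estimated from the miR-183-5p group alone, the one group with libraries of both sets. In miR-183-5p against ctrl that covariate gave 0.0077 for Itga6 and -0.030 for Itgb2. Limma gave -0.010 (pseudocount 1) and -0.015 (pseudocount 0.1) for Itga4 in miR-142-5p against ctrl. Apart from the length offset, whose effect on Itgav follows from its construction, the cause was not tested.

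Leaving out single tumours changed the sign in 36 of 198 fits, in 21 of 33 log2 fold changes, none of which exceeded 0.29 in size. The ranges in miR-142-5p against ctrl were -0.27 to 0.037 (Itgav), -0.11 to 0.21 (Itga4), -0.34 to 0.0077 (Itga5), -0.071 to 0.026 (Itga6), -0.12 to 0.30 (Itgal), -0.35 to 0.047 (Itgax), -0.14 to 0.023 (Itgb2), -0.076 to 0.18 (Itgb3) and -0.028 to 0.57 (Itgb7). In miR-183-5p against ctrl they were -0.077 to 0.021 (Itga6), -0.38 to 0.012 (Itgax), -0.031 to 0.17 (Itgb2), -0.11 to 0.18 (Itgb5) and -0.23 to 0.37 (Itgb7). In miR-222-3p against ctrl they were -0.46 to 0.15 (Itga4), -0.13 to 0.25 (Itga5), -0.079 to 0.020 (Itga6), -0.19 to 0.16 (Itgal), -0.034 to 0.36 (Itgax), -0.19 to 0.11 (Itgb3) and -0.30 to 0.29 (Itgb7). The miR-183-5p values kept their sign for Itgb3 (0.27 to 0.48), Itga5 (0.27 to 0.55), Itga4 (-0.58 to -0.34) and Itgal (-0.36 to -0.29). The 95% intervals given above show how precisely 3 tumours per group measured each change.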
